A study of Mus musculus with 2 samples.

Results

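The microRNA genes described here are the 10 genes Mir493, Mir337, Mir540, Mir665, Mir431, Mir433, Mir127, Mir434, Mir136 and Mir370, of 2202 microRNA genes in the deposited count tables. They are listed symbols in the proximal part of the imprinted Dlk1-Dio3 region of chromosome 12, around Rtl1. The list was made with earlier results of these data known and leaves out 8 annotated microRNA genes between its outermost members. All 10 listed genes were matched through their GENCODE M21 identifiers. Small RNA (size range below 30 in the labels) was sequenced from total RNA of the gastrocnemius, the large calf muscle, of female B6CASTF1/J mice aged 25 days, F1 hybrids of the C57BL/6J and CAST/EiJ strains, and the labels name no treatment. The study has 1 group of 2 libraries, biological replicates 2 and 1. The labels give each library its own female number but both the same donor identifier, so each SD below measures the spread between these libraries, which may be technical. Counts were not split by parental allele.

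Replicate 2 held 5429127 reads on the strand of microRNA genes and replicate 1 held 1573213. Levels are CPM, reads per 1000000 such reads, and a count of 0 allows up to 0.553 CPM in replicate 2, against 1.91 CPM in replicate 1 (3 counts per library). Intervals and these limits cover counting error only. Beside the tissue label, 9 microRNA genes of striated muscle were examined, all of which reached 2 CPM in both libraries. So did 2 of 2 erythroid genes, 4 of 5 of smooth muscle and fibroblasts and 6 of 10 epithelial genes. Reaching 2 CPM therefore does not tell muscle from other tissue. Mir206, specific to skeletal muscle, was at 72482 CPM in replicate 2, against 34864 CPM in replicate 1. Mir133a-2, the lowest of the 9, only just reached that level in replicate 2, at 2.03 CPM on 11 counts. Mir143, listed for smooth muscle and fibroblasts, stood below Mir206 in replicate 2, at 59272 CPM, but above it in replicate 1, at 127590 CPM. All 3 copies of the neuronal Mir124a were at 0 in both libraries. Reads with more than 1 alignment are not in these counts, so 0 at a gene with copies does not show absence. A low level at such a gene, as at Mir133a-2, may likewise be understated. Mir338, of the same list of neural genes, had 749 CPM in replicate 2, against 1581 CPM in replicate 1.

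In the Dlk1-Dio3 region the maternal chromosome gives rise to non-coding RNAs, among them Meg3, the transcript antisense to Rtl1 and Rian, while the paternal one expresses the protein-coding genes Dlk1, Rtl1 and Dio3. Rtl1 is a retrotransposon-derived gene needed in the mouse placenta and in developing muscle. MicroRNAs cut from its antisense transcript match the Rtl1 messenger RNA exactly and are known to cleave it in the mouse.

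All 10 hairpins lie on the forward strand of the mm10 assembly with GENCODE M21, in 3 placements. Mir493 (ENSMUSG00000077025.2, chr12:109580233-109580315), Mir337 (ENSMUSG00000065526.4, chr12:109585789-109585885), Mir540 (ENSMUSG00000072900.2, chr12:109586080-109586146) and Mir665 (ENSMUSG00000076313.1, chr12:109586314-109586407) lie in no annotated gene other than microRNA genes, between the end of Meg3 at 109571726 and Rtl1. Mir431 (ENSMUSG00000070080.1, chr12:109590447-109590537), Mir433 (ENSMUSG00000070072.1, chr12:109591715-109591838), Mir127 (ENSMUSG00000070076.2, chr12:109592846-109592915), Mir434 (ENSMUSG00000070133.1, chr12:109594506-109594599) and Mir136 (ENSMUSG00000104858.1, chr12:109595327-109595388) lie opposite the coding part of an exon of Rtl1, which runs on the reverse strand from 109589193 to 109600330. Mir370 (ENSMUSG00000065433.1, chr12:109618258-109618336) lies in an intron of Rian, on the same strand.

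RefSeq (GRCm38.p6) lists both mature arms of all 10 hairpins, 20 arms in all. The arms of the 5 Rtl1-antisense genes and of Mir337, the most abundant member outside Rtl1, are shown 5′ to 3′ with the seed (bases 2 to 8), which sets most target pairing, in capitals.
miR-431-5p: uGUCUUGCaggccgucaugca
miR-431-3p: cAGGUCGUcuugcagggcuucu
miR-433-5p: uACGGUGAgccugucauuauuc
miR-433-3p: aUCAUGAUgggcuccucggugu
miR-127-5p: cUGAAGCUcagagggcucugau
miR-127-3p: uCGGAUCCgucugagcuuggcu
miR-434-5p: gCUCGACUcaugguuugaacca
miR-434-3p: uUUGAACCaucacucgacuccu
miR-136-5p: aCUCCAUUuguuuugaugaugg
miR-136-3p: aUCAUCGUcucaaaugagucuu
miR-337-5p: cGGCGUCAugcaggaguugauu
miR-337-3p: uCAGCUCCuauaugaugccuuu
The 20 arms carried 20 different seeds. No other gene in the table had the seed of 18 of them, whereas 32.0% of all 1738 listed arms shared a seed with another gene. Of the 2 shared seeds, that of miR-370-5p also belonged to miR-1193-3p, whose gene Mir1193 lies in the distal part of the same region and averaged 468 ± 43.5 CPM (SD, n = 2). That of miR-540-3p belonged to miR-6915-5p, whose gene Mir6915 had no count. A CG dinucleotide, searched as the letters CG in bases 2 to 8, was present in 6 of the 20 seeds and in 12.8% of all listed seeds. Those 6 were 1 arm of each Rtl1-antisense gene and miR-337-5p.

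All 10 arms of the Rtl1-antisense genes had 1 exact full-length complementary site in the annotated Rtl1 transcript, within the coding sequence, and no arm of the other 5 members had one. The sites of the most abundant gene are shown in the sense of Rtl1, with the bases opposite the seed in capitals.
Rtl1 site of miR-127-3p: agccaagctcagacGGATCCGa
Rtl1 site of miR-127-5p: atcagagccctctgAGCTTCAg
Counted from the A of the Rtl1 start codon, these sites begin at positions 2495 and 2529, and those of miR-136-3p and miR-431-5p, the outermost, at positions 17 and 4925. Among the arms of all other microRNA genes in the table, only that of Mir432 had such a site. Mir432 lies between Mir434 and Mir136 and had no count in either library.

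The members stood in the same order of level in both libraries, with Mir127 far above the rest. Mir127 had 29005 CPM in replicate 2, against 24432 CPM in replicate 1 (157474 and 38436 counts), a mean of 26718 ± 3234 CPM (SD, n = 2). It ranked 12 of all microRNA genes by these counts, which leave out reads with several alignments. The next member, Mir434, averaged 6.54-fold less. A read of a mature microRNA spans most of it, so CPM was not divided by length. Their order was also the same in CPM per 100 bases of hairpin, a scale added once the values had been seen. In each of the 9 neighbouring pairs of that order, the lower library of the higher gene stood above both libraries of the lower gene. Counts belong to whole hairpins, so the arms behind each level were not distinguished.

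**Figure D1:**
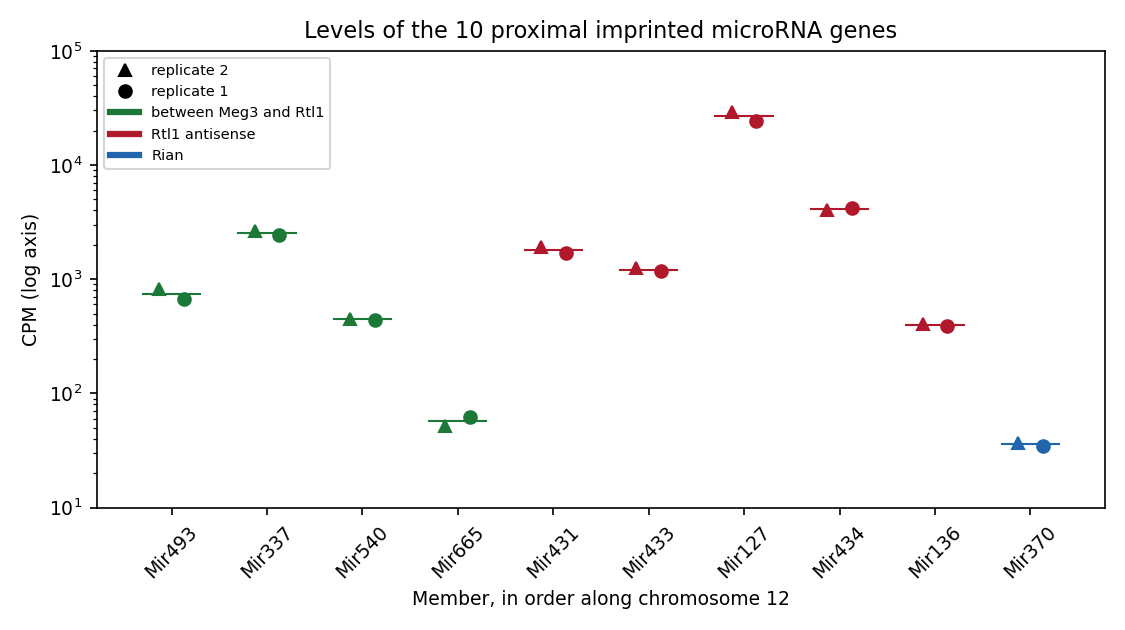
CPM of each member (log axis) in replicate 2 (triangles) and replicate 1 (circles), in order along chromosome 12; the line is the mean of both and colours give the placement. Mir127 stood highest at 29005 and 24432 CPM, and Mir370 lowest at 37.0 and 34.3 CPM.

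Genes antisense to Rtl1 carried most of the members' reads. Besides Mir127, known in the mouse to restrain Rtl1, they include Mir434, known in mouse muscle to act on the translation factor gene Eif5a, which had 3993 CPM in replicate 2, against 4183 CPM in replicate 1, a mean of 4088 ± 135. Mir431, known in mouse muscle stem cells to act on Pax7, had 1924 CPM in replicate 2, against 1683 CPM in replicate 1, a mean of 1803 ± 171. Mir433, known in mouse bone-forming cells to act on Runx2, stood at 1251 CPM in replicate 2, against 1172 CPM in replicate 1, a mean of 1212 ± 56.1. Mir136 was the lowest of the 5, with 401 CPM in replicate 2, against 387 CPM in replicate 1, a mean of 394 ± 9.94. Among these 5, with library totals as the scale, the spread between libraries was thus widest, relative to the mean, at Mir127 (12.1%) and narrowest at Mir136 (2.52%). With TMM scaling Mir127 was still the widest, but Mir136 stood at 395 ± 44.4 CPM and Mir434, then the narrowest, at 4090 ± 222 CPM.

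The 4 genes between Meg3 and Rtl1 had mean levels from 56.9 to 2557 CPM. Mir337 had 2660.1 CPM in replicate 2, against 2455 CPM in replicate 1, a mean of 2557 ± 145, below Mir127 and Mir434 alone among the members. Mir540 and Mir665, the next members downstream, were far lower. Mir540 had 448 CPM in replicate 2, against 439 CPM in replicate 1, a mean of 444 ± 6.17, and Mir665 had 51.6 CPM in replicate 2, against 62.3 CPM in replicate 1, a mean of 56.9 ± 7.58. Hairpins that lie side by side on the same strand thus differed by far more than their spread between libraries. Mir493, the most upstream member, had 814 CPM in replicate 2, against 667 CPM in replicate 1, a mean of 741 ± 104. Mir370, in the Rian intron and known in human liver cells to act on CPT1A, a gene of mitochondrial fatty-acid import, had 37.0 CPM in replicate 2, against 34.3 CPM in replicate 1, a mean of 35.7 ± 1.91, on 201 and 54 counts.

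**Figure D2:**
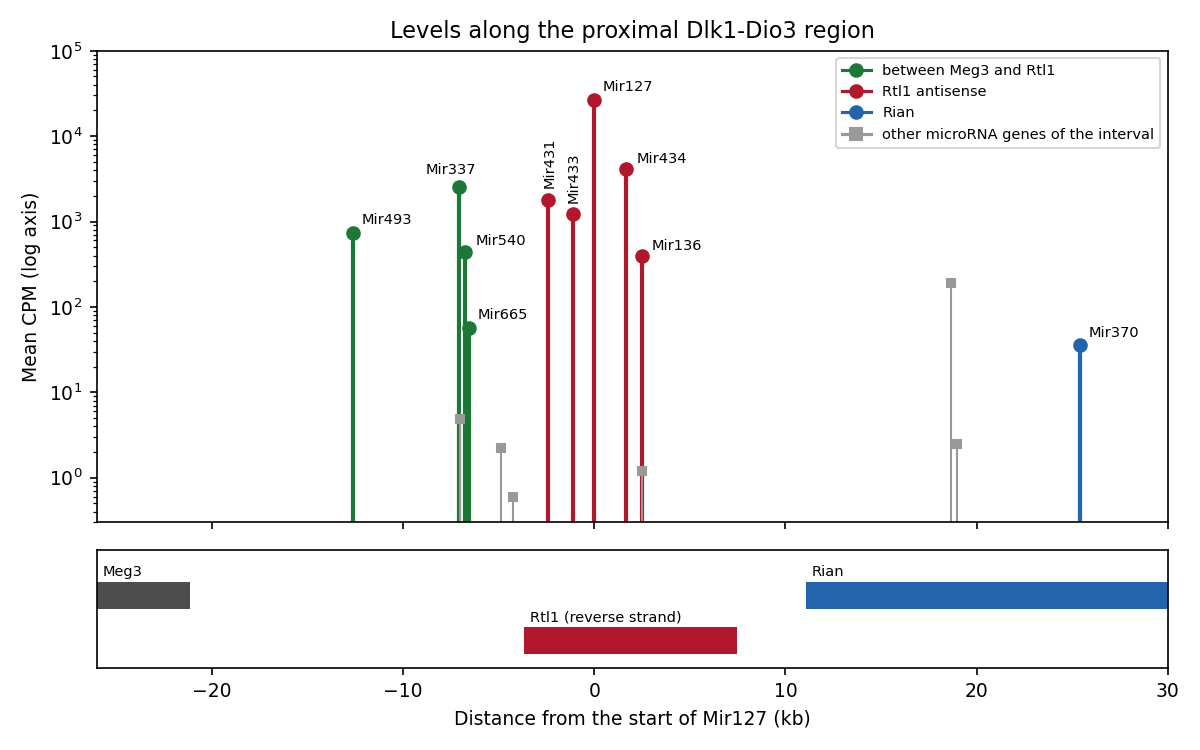
Mean CPM of both libraries (log axis) against distance in kb from the start of Mir127, with members coloured by placement and other microRNA genes of the interval in grey; the lower panel draws Meg3, Rtl1 and Rian to scale, cut at the edges. The highest members stand over Rtl1 and beside it, and Mir370 lies 25.4 kb downstream of Mir127.

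Together the 10 genes held 4.06% of all microRNA-gene reads in replicate 2 (exact binomial 95% interval 4.04 to 4.08) and 3.55% in replicate 1 (3.52 to 3.58), a mean of 3.81% ± 0.359. Without Mir127 the other 9 held 1.16% in replicate 2 and 1.11% in replicate 1. Within the members' own sum, a measure that library scaling cannot move, the Rtl1-antisense genes made up 90.1% in replicate 2 and 89.7% in replicate 1. Mir127 alone made up 71.5% of it in replicate 2 (71.3 to 71.7) and 68.8% in replicate 1 (68.4 to 69.2). Mir434 made up 9.84% in replicate 2 (upper bound 9.96) and 11.8% in replicate 1 (lower bound 11.5). For both genes the intervals of the libraries did not overlap, while the share of Mir431 was 4.74% in both.

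All 10 members reached 2 CPM in both libraries, as did 324 of the 2202 genes. The median member had 976 CPM, against 130 CPM for those 324 genes. Another 8 annotated microRNA genes lie between the outermost members, over 38.1 kb, and the members held 99.5% of the reads of that interval in replicate 2 and 99.4% in replicate 1. Over all 18 genes of the interval the median was 125 CPM, and over the 12 detected ones 592 CPM. The high median of the members is thus that of the listed genes and not of the whole interval. Mir341, in the Rian part, was the highest of the 8 at 181 CPM in replicate 2, against 204 CPM in replicate 1. Mir3070a, Mir3070b and Mir1188 averaged between 0.594 and 2.46 CPM, and Mir432 and Gm23912 were at 0 in both libraries.

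Mir337 and Mir136 are each overlapped on the opposite strand by another annotated microRNA gene, Mir3544 and Mir3071. Mir3544 had 36 reads in replicate 2, beside 14442 of Mir337, and 5 in replicate 1, beside 3862. That is 0.249% of the pair's reads in replicate 2 (exact 95% interval 0.174 to 0.344) and 0.129% in replicate 1 (0.042 to 0.301). Mir3071 had 13 reads in replicate 2, beside 2178 of Mir136, or 0.593% (0.316 to 1.01), and 0 in replicate 1, beside 609, which allows up to 0.604% by the same interval. Nearly all reads of both loci thus lay on the strand of Meg3 and Rian. At the other 8 members, 2 reads lay on the opposite strand, both at Mir434 in replicate 2. In the column that ignores strand, Mir337 and Mir136 are listed at 0, and only the column for the gene's own strand gives them a level.

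No member's hairpin shared a stretch of 18 bases, on either strand, with a microRNA gene at another position, while 26.9% of the 324 detected genes did. Reads with more than 1 alignment, 69.1% ± 0.794 of each library, were tallied apart from the genes. Every level, rank, share and median given here leaves them out, and genes that share sequence with another gene can lose reads in this way. How far this affects the place of the members among all genes was not tested. Matches elsewhere in the genome were not examined. Repeats within a hairpin were seen in 2 members. In Mir431 the stretch gucuugcagg stands in both arms, and in Mir434 the stretch uuugaacca does. A stretch of 9 or more bases in both arms was found in 1.33% of 677 genes with both arms listed, whose median was 4 bases. The minimum of 9 is the length of the Mir434 stretch, and both members are among the genes counted. The share is therefore no independent measure of how rare such repeats are.

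With library totals as the scale, no member differed between the libraries by more than 1.22-fold, the value of Mir493. All 364 genes with at least 10 reads in sum were tested by two-sided exact binomial tests under Benjamini-Hochberg adjustment, which compare the reads of these 2 libraries and not conditions. Of the 10 members 5 were higher in replicate 2, against 15.1% of genes tested, and 1 was lower, against 30.2%. The test calls smaller differences at genes with more reads, and the share called among genes at the members' levels was not counted. Mir127 had a log2 ratio of replicate 2 over replicate 1 of 0.25 (exact 95% interval 0.23 to 0.26, exact binomial adjusted p = 2.79e-205), and Mir493 one of 0.29 (0.19 to 0.38, exact binomial adjusted p = 2.05e-08). The ratios of Mir431, Mir337 and Mir433 were 0.19, 0.12 and 0.09, all past the test. Mir434 had a ratio of -0.07 (-0.11 to -0.03, exact binomial adjusted p = 0.00296). Mir540, Mir136, Mir370 and Mir665 did not pass, and the interval of Mir665, -0.61 to 0.07, was wide on 280 and 98 counts.

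These directions depend on scaling. The median log2 ratio over detected genes was -0.15 with library totals, 0.03 with TMM and 0.05 with DESeq2 size factors. With TMM, 8 members were higher and 0 lower in replicate 2, against 28.6% and 19.2% of genes tested, and with DESeq2 size factors again 8 and 0, against 29.4% and 17.9%. The ratio of Mir434 was then positive, at 0.11 and 0.13, and the largest ratio, that of Mir493, was 0.46 and 0.49. Under library totals the members' median ratio was 0.10, which is 0.25 above that of all detected genes. No member differed 1.5-fold or more, against 28.3% of genes tested and 13.1% of the 214 genes at or above the level of the lowest member.

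**Figure D3:**
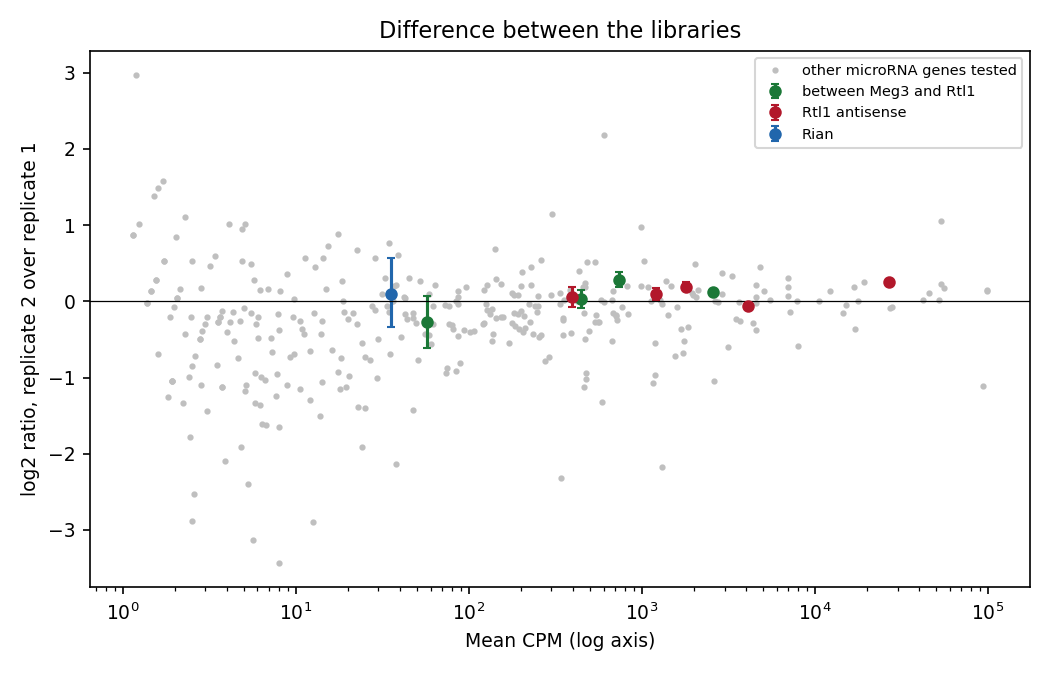
Log2 ratio of replicate 2 over replicate 1, with library totals, against mean CPM (log axis) for genes with at least 10 reads; bars on members are exact 95% intervals. The members lie between -0.28 and 0.29, with the widest bars at the low levels of Mir370 and Mir665.

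Markers of several cell types also differed between the libraries. Calls here use library totals, with which 15.1% of all genes tested were higher in replicate 2 and 30.2% lower. Calls for these lists were not counted with other scalings. The 9 striated muscle genes summed to 74995 CPM in replicate 2, against 36362 CPM in replicate 1, with 5 higher and 2 lower in replicate 2, and without Mir206 the other 8 summed to 2513 and 1498 CPM. The 5 smooth muscle and fibroblast genes summed to 63364 CPM in replicate 2, against 132824 CPM in replicate 1. Of the 4 tested, 1 was higher and 2 were lower in replicate 2. Without Mir143 the other 4 genes of the list summed to 4091 and 5233 CPM. Single genes thus made up most of both sums as counted. In the striated muscle list, genes present in copies, such as those of Mir1a and Mir133a, can lose reads that align to each copy. The part of Mir206 in that sum may therefore be overstated, which was not tested. Both erythroid genes were lower in replicate 2, and they summed to 587 CPM there and 2703 CPM in replicate 1. Of 10 epithelial genes 8 were tested and 7 were lower in replicate 2. The list summed to 255 CPM there and 518 CPM in replicate 1, of which Mir203 held 217 and 360.4 CPM. Of 9 neural genes 4 were at 0 in both libraries and 3 were tested. Of these 1, Mir338, was lower in replicate 2, at 749 CPM there and 1581 CPM in replicate 1. The other 8 neural genes summed to 9.03 CPM in replicate 2 and 8.90 CPM in replicate 1. The part of cell makeup in the members' ratios was not tested, and in whole muscle fewer cells of a type and less RNA per cell cannot be told apart.

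The distal array of the same region, from Mir379 to Mir3072, was set beside the members. Of the 40 genes listed for it, Mir496b lies on chromosome 19 in the annotation and had no read, so the other 39 are described. All 10 members but 33 of these 39 genes reached 2 CPM in both libraries, and 2 of the 39 had no read. Medians were 976 CPM for the members and 193 CPM for the 39 distal genes, or 228 CPM for the 33 detected ones. Neither list holds every annotated microRNA gene of its stretch. Over all 18 genes between the outermost members the median was 125 CPM, below that of the distal list, and over the 12 detected ones it was 592 CPM. The order of these medians thus depends on which genes are included. The members held 42.9% of the reads of both lists in replicate 2 and 43.8% in replicate 1. The 3 highest distal genes were Mir411 at 19135 ± 2361 CPM, Mir379 at 5082 ± 345 CPM and Mir487b at 4816 ± 1066 CPM, so Mir127 stood above each by more than the larger SD. Mir411 had the same log2 ratio between the libraries as Mir127, 0.25. In the distal array 15 of 33 genes tested were higher and 1 was lower in replicate 2, against 15.1% and 30.2% of all genes tested. Their median log2 ratio with library totals was 0.19, against 0.10 for the members. At least 1.5-fold apart were 2 distal genes, against 28.3% of all genes tested and 13.1% of the 214 genes at or above the level of the lowest member. Of the distal genes 32 stood at or above that level. The 2 genes, named after their values were seen, were Mir381 and Mir543, with log2 ratios of 0.97 and 0.68.

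**Figure D4:**
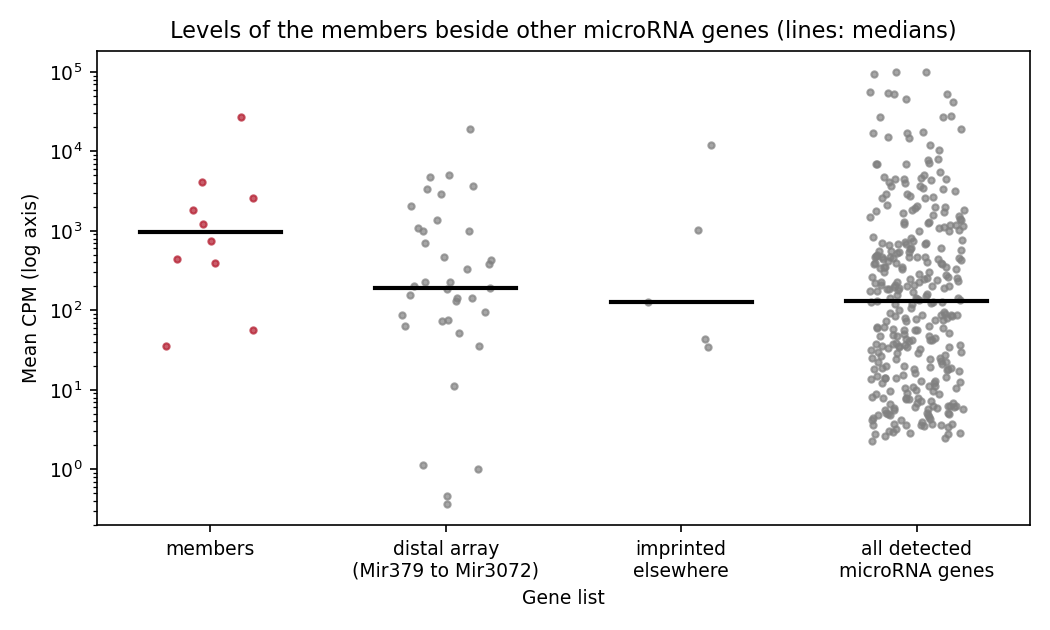
Mean CPM of both libraries (log axis) of the members, the 39 distal array genes on chromosome 12, imprinted microRNA genes elsewhere and all detected microRNA genes; each point is a gene, genes at 0 are not drawn, and lines are medians over all genes of a list. Medians were 976, 193, 128 and 130 CPM.

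Of 5 imprinted microRNA genes on other chromosomes, Mir335, in Mest, was the highest at 12172 ± 790 CPM, below Mir127 but above the other 9 members. Mir483, in Igf2, averaged 1021 ± 265 CPM and Mir298, at the Gnas locus, 128 ± 13.4 CPM. Mir296, also at the Gnas locus, averaged 43.7 ± 4.74 CPM, and Mir675, in H19, 34.7 ± 2.18 CPM, within 1 SD of Mir370. Among all other genes, the nearest in mean level to Mir127 was Mir99a at 27177 ± 1233 CPM. For Mir434 it was Mir744 at 4014 ± 76.4 CPM, and for Mir337 Mir145a at 2623 ± 1282 CPM, whose libraries lay much further apart than those of Mir337. With 2 libraries, likeness in level is all that could be compared.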

How the data were processed

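Each library came as a table of raw counts deposited by the authors, with 3 count columns per microRNA gene (either strand, strand of the gene, opposite strand, as read from the values) below 4 tally rows that stayed out of library totals. The assembly was mm10 per the labels and the annotation GENCODE M21 per the deposited readme files; the aligner and counting tool were not given in the sources used here. The gene-strand column was scaled to CPM over all gene rows. Ratios of replicate 2 over replicate 1 used an offset of 0.5 counts. The exact binomial test, with library totals as odds and adjusted p under 0.05, ran over all genes with at least 10 reads and was tried on simulated data. Besides set fold changes, the simulated libraries differed by counting noise only. That trial therefore does not give the error rate of the test for libraries that differ by more. edgeR's quasi-likelihood test could not be fitted to 1 library against 1. edgeR 4.0.16 (TMM) and DESeq2 1.42.0, in R 4.3.3, gave alternative scalings; other steps used Python 3.11.15, pandas 2.3.3, scipy 1.17.1 and matplotlib 3.10.9. The libraries differed beyond sampling noise (chi-square 134418, 363 degrees of freedom). Also tried were other detection minimums, counts on either strand, a denominator of all aligned reads, no count filter, a fold minimum and leaving out each replicate. Named were the members, microRNA genes overlapping or between them, the 3 highest of a distal list, imprinted genes elsewhere and the nearest gene in level to the top 3 members. Members and lists were chosen with earlier results of these data known.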

Additional observations from a re-analysis of the deposited data

Results flagged for a closer look

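A tally outside the gene counts, of reads with several alignments, stood at 69.7% of the reads of replicate 2 and 68.6% of those of replicate 1. Reads opposite Mir337 numbered 36 in replicate 2 and 5 in replicate 1, and 13 lay opposite Mir136 in replicate 2, each above the 3 counts that a count of 0 allows. They fall within the annotated genes Mir3544 and Mir3071.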

How the results depend on the processing

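No paired analysis was possible because the study has 1 group. With the either-strand column the members' summed share was 4.59%, their median 774 CPM and the share of Mir127 in their sum 76.0%; Mir337 and Mir136 are then at 0, and 8 members were detected. With all aligned reads as denominator the summed share was 0.899%. The median over genes with at least 1 count was 2.69 CPM, beside 128 CPM for detected genes (means of the libraries' medians). Members higher in replicate 2 numbered 8 with TMM and with DESeq2 size factors, and members lower 0 with both and with the either-strand column; the ratio of Mir434 turned to 0.11 with TMM and 0.13 with DESeq2 size factors. With no filter on low counts 4 members were higher, since more genes entered the adjustment. Mir540 and Mir136 passed the test with TMM and with DESeq2 size factors, and Mir434 did not pass with the either-strand column (exact binomial adjusted p = 0.141). With a minimum of 1.5-fold, 0 members passed in either direction. Added after the data were seen, the distal median over the 39 genes on chromosome 12 was 188 CPM, beside 185 CPM over the 40 listed (means of the libraries' medians). Across all genes tested, calls lower in replicate 2 numbered 110 with library totals, 70 with TMM and 65 with DESeq2 size factors, and calls higher 55, 104 and 107. Opposite-strand reads made up 0.000491% of reads at members overlapping no microRNA gene. With 2 libraries, leaving out 1 leaves the value of the other (summed share 3.55% to 4.06%) and says nothing about stability. CPM minimums of 1, 5 and 10 kept all 10 members. Depth limits Mir370 and Mir665, with 54 and 98 counts in replicate 1.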
